A study of Mus musculus with 72 samples.

Results

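The nuclear genes of oxidative phosphorylation were followed through acute colitis of the mouse and its treatment with antagonists of TNF and TWEAK. All genes whose symbol begins with Nduf, Uqcr, Atp5 or Cox4 to Cox8 were taken, together with Sdha, Sdhb, Sdhc, Sdhd and Cyc1, which gave 91 of the 18193 genes on the array. They comprised 6 core subunits, 28 accessory subunits and 8 assembly factors of complex I, 4 subunits of complex II, 9 of complex III, 19 of complex IV and 17 of ATP synthase. Ndufa4 and Ndufa4l2, once counted with complex I, were placed with complex IV. Each gene was read from its brightest probe set that names 1 gene, and 85 members were bright enough to be tested. The other 6 (Cox4i2, Cox7b2, Cox8c, Ndufa4l2, Ndufb1 and Ndufb4) had mean values below the filter on dim genes.

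Oxidative phosphorylation makes most of the ATP of resting cells. Electrons from NADH enter the inner mitochondrial membrane at complex I and those from succinate at complex II, pass through complex III and cytochrome c to complex IV, where oxygen is reduced, and the proton gradient built on the way drives ATP synthase. In the colon, epithelial cells burn bacterial butyrate by this route. The subunits encoded by mitochondrial DNA are not among the members.

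Colon RNA of 72 wild-type Balb/c mice, 1 array per mouse, was measured on Affymetrix 3 prime expression arrays, and values are on a log2 scale as deposited. In 64 mice colitis had been set off with 70 µg per g body weight of the hapten TNBS (trinitrobenzene sulfonic acid), instilled into the rectum in an ethanol solution, and colons were taken on day 4. Before TNBS these mice received the combination of TNFR-Ig at 0.3 mg/kg and the anti-TWEAK antibody mP2D10 at 10 mg/kg (n = 15), anti-TWEAK alone at 10 mg/kg (n = 14), TNFR-Ig alone at 0.3 mg/kg (n = 12), a control antibody to human CD20 at 10 mg/kg (n = 15) or nothing (n = 8). A further 8 mice were naive. TNFR-Ig is a fusion protein that binds TNF, and the mice given it alone received no control antibody. The study was done as 2 experiments, numbered 7 and 10 in the labels, and naive mice are in experiment 10 only. All arrays of experiment 10 and 2 combination arrays of experiment 7 were in array run 2. The other arrays of experiment 7 were in array run 1. Replicate 1 of the naive mice carries a treatment label that contradicts its title and was kept as naive by title. The RNA came from pieces cut from the frozen rolled colon, so cell types are mixed, and fewer cells of a type cannot be told apart from less RNA per cell.

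The colon label was borne out by its markers other than Hoxa13. The mean of the list, of which 7 of 8 genes were read, lay between 11.95 and 12.24 on all arrays. Hoxa13 lay near the floor (mean 2.48, highest 3.16), and the others had means from 11.94 to 15.06. Between mice, other tissues varied widely: the mean of 10 skeletal and heart muscle markers ran from 3.74 to 12.73 and that of 6 exocrine pancreas markers from 3.84 to 13.46. The 10 neutrophil markers tested rose by a median of 7.35 log2 units in untreated colitis. The difference between the 3 prime and the 5 prime probe sets of Actb, a measure of RNA quality, averaged between 1.06 and 1.14 in the 6 groups. Array number limits the precision of all values.

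The members were read by bright probe sets and varied little between mice. The median of their mean levels was 13.2, against 9.83 for all 12534 genes tested, on a scale that ends at 15.978, and 69 of 85 lay above 12. Brightness differs between probe sets and does not rank genes by abundance. The standard deviation between mice of the same group and experiment had a median of 0.0763 over members and 0.168 over all genes tested. For genes at least as bright as the lower quartile of the members it was 0.0696 in members and 0.0816 in the others. Only 4 members exceeded 0.3, namely the muscle isoforms Cox6a2 (1.55), Cox8b (0.997) and Cox7a1 (0.474), and the complex I assembly factor Ndufaf6 (0.304). Within groups the members varied together, and 1 principal component carried 44.0% of their scaled variance, with 80 of 85 loadings of the same sign. The same was not computed for other genes, so this is not shown to be particular to the members.

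The promoter sequences of members whose levels differed are shown first, because the genes of the respiratory chain are known to share binding motifs for NRF1, for ETS factors such as GABP and for YY1. Of the 91 members, 74 matched a window in RefSeq's mouse assembly GRCm38.p6 that runs from 250 bases before to 50 after the gene's start. The motif of NRF1 (10 letters, either strand, any base at the sixth; the capitals in the sequences below spell an instance) was in 16 of 74 member windows (21.6%) and in 4.78% of all 27025 windows of the same length. The ETS motif (CCGGAAG, either strand) was in 18 member windows (24.3%) and in 9.12% of all, and the YY1 motif (AAGATGGCG, either strand) in 6 (8.11%) and in 1.49% of all. At least 1 of these was in 35 member windows (47.3%) and in 14% of all. Of the 8 matched members that were lower with the combination than with the control antibody, 4 had a match. The NRF1 motif was in the windows of Ndufaf4, Ndufaf5 and Atp5k, the ETS motif also in that of Atp5k, and the YY1 motif in that of Ndufa9. The 150 bases before the start are given for Ndufaf4 and Atp5k, which have an NRF1 motif there (capitals), for Ndufaf2, which fell with them, and for Cox7c, which had the largest change among the members called in colitis over both experiments. These are chr4:24897933-24898082 on the plus strand for Ndufaf4, chr5:108434400-108434549 on the minus strand for Atp5k, chr13:108158626-108158775 on the minus strand for Ndufaf2 and chr13:86046796-86046945 on the minus strand for Cox7c, read 5′ to 3′ along the gene.
Ndufaf4: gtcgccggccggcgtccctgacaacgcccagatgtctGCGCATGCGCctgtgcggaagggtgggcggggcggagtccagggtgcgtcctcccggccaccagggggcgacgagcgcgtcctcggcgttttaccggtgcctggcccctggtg
Atp5k: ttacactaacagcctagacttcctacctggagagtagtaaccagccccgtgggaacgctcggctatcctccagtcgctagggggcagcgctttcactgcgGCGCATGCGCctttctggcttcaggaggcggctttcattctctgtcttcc
Ndufaf2: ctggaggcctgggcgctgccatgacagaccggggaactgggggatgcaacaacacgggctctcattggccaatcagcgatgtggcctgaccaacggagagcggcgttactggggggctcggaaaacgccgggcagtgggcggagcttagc
Cox7c: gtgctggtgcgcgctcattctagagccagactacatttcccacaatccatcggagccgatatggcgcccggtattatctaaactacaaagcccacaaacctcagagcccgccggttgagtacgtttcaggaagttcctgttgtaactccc

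In untreated colitis few members passed the test. Against naive mice, 5 of 85 members passed the test (5.88%), 3 higher and 2 lower, whereas 47.8% of all genes tested did, 22.2% higher and 25.6% lower, by limma with the experiment as a term and Benjamini-Hochberg adjustment. Of the 64 brightest members 3 were called (4.69%), against 886 of 1728 other genes at least as bright (51.3%). The median absolute log2 change was 0.0406 over members and 0.186 over all genes tested, and 1 member, Cox6a2, had an estimate of at least 0.5, with adjusted p = 0.458.

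Cox7c, a small subunit of complex IV, had the largest change among the members called in colitis over both experiments. Its values in the untreated mice of experiment 10 were 10.19, 10.32, 10.48 and 10.54, against a lowest of 9.81, a median of 10.08 and a highest of 10.21 in the 8 naive mice. Of the untreated mice 1 lay inside the naive range and 3 above it, and all mice of experiment 10 given TNFR-Ig, anti-TWEAK or the combination lay above it. Over all genes tested, 15.7%, 14.6% and 10% did not overlap naive mice in these 3 groups, in either direction. Of the members it was 3.53%, 2.35% and 1.18%. Over both experiments the change was +0.35 ± 0.062 log2 units (SE), 1.27-fold, with adjusted p = 4.7e-06. A second, dimmer probe set of the gene gave +0.37 ± 0.14 (adjusted p = 0.0205). Cox7c stayed higher with the combination than in naive mice, by 0.40 ± 0.055 log2 units (adjusted p = 8.57e-08).

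Ndufa1, an accessory subunit in the membrane arm of complex I, had the larger change of the 2 members called lower over both experiments. The untreated mice of experiment 10 had values of 12.77, 12.77, 12.85 and 13.00, against a lowest of 13.04, a median of 13.14 and a highest of 13.26 in naive mice. The groups did not overlap, and all mice of experiment 10 given the control antibody, TNFR-Ig or anti-TWEAK also lay below the naive range. Such a lack of overlap with naive mice, in either direction, was common over all genes tested. It held for 24.5% in untreated mice, 23.7% with the control antibody, 15.7% with TNFR-Ig and 14.6% with anti-TWEAK. Of the members it held for 2.35%, 2.35%, 3.53% and 2.35%. The change over both experiments was -0.27 ± 0.056 log2 units (adjusted p = 5.17e-05). In mice given the combination the values ran from 12.81 to 13.19 with a median of 12.99, overlapping both. Ndufa1 was 0.14 ± 0.047 log2 units higher with the combination than in untreated mice (adjusted p = 0.0223), the only member called in that comparison (1.18%, against 24.6% of all genes tested). It remained lower than in naive mice by 0.13 ± 0.049 log2 units (adjusted p = 0.0433).

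The remaining 3 calls in colitis were small. Ndufa4, the complex IV subunit formerly assigned to complex I, was 0.11 ± 0.028 log2 units higher (adjusted p = 0.00122), Ndufaf4, an assembly factor of complex I, 0.26 ± 0.095 higher (adjusted p = 0.0194), and Uqcrfs1, the Rieske iron-sulfur protein of complex III, 0.081 ± 0.032 lower (adjusted p = 0.0293). The second probe set of Ndufaf4 moved the same way, by +0.42 ± 0.10 (adjusted p = 0.000448). No core subunit of complex I, no subunit of complex II and none of the 17 genes of ATP synthase was called by its brightest probe set, by limma at the same threshold. At an unadjusted p under 0.05 there were 1 of 6, 0 of 4 and 0 of 17, and the share of all genes at that level is not given here.

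Other probe sets gave more calls in colitis than the brightest ones. For 49 members 79 further probe sets were tested, and 18 of them were called, against 5 of the 85 brightest in the same fit. The share over all probe sets of that fit is not given here. Of all genes tested by their brightest probe sets, 47.8% were called in colitis. Of the 18, those of Cox7c and Ndufaf4 were higher and the rest lower. Among the lower were probe sets of Sdha (-0.81 ± 0.12, adjusted p = 1.66e-07, mean level 4.97), Sdhc (-0.10 ± 0.040, 0.0357), Ndufs4 (-0.39 ± 0.14, 0.0201), Ndufb2 (-0.37 ± 0.090, 0.000545), Uqcrb (-0.10 ± 0.027, 0.00102), Atp5c1 (-0.21 ± 0.083, 0.0307) and 3 of Cox5b (-0.084, -0.12 and -0.24), chosen after their values were seen. In sign, 21 of the 79 differed from the brightest probe set of their gene, 1 of them among the 18. Of the other probe sets called, 1 of 8 with the combination, 4 of 9 between the combination and naive mice and 7 of 31 between experiments had the opposite sign to the brightest. Between experiments the second probe set of Ndufaf4 had a change of +0.014 (adjusted p = 0.837) and that of Cox7c -0.087 (0.301).

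The count in colitis depended on how the experiments were joined. With experiment 10 alone, where naive and untreated mice were run together, 25 of 85 members were called (29.4%, against 47.9% of all genes tested), 23 of them lower, where 29.3% of all genes were lower. These were 9 accessory subunits of complex I led by Ndufa1 (-0.30), 1 core subunit (Ndufs1, -0.16), 3 of 4 subunits of complex II (Sdhb, -0.16, Sdhc, -0.11, and Sdha, -0.086), Uqcrfs1 of complex III, Cox7a1 (-0.49), Cox8a (-0.15) and Cox5b (-0.11) of complex IV, Atp5e, Atp5j2 and Atp5k of ATP synthase, and the assembly factors Ndufaf6, Ndufaf3 and Ndufaf1. Cox7c and Ndufaf4 were higher. The count varied with the untreated mouse left out: it was 7 without replicate 2, 13 without replicate 5, 22 without replicate 3 and 30 without replicate 1. The shares of all genes in those fits are not given here. In both fits the members lay slightly below zero, with a median change of -0.024 over both experiments and -0.062 in experiment 10, against -0.0085 and -0.041 over all genes tested. Centring each array on its median gave 20 calls over both experiments, 3 higher and 17 lower, again without the share of all genes. In the same mice the colonocyte and smooth muscle markers were lower, 11 of 14 and 10 of 10 by the test, and the 12 monocyte and macrophage markers tested were all higher. Their part in the members' values was not tested.

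**Figure D1:**
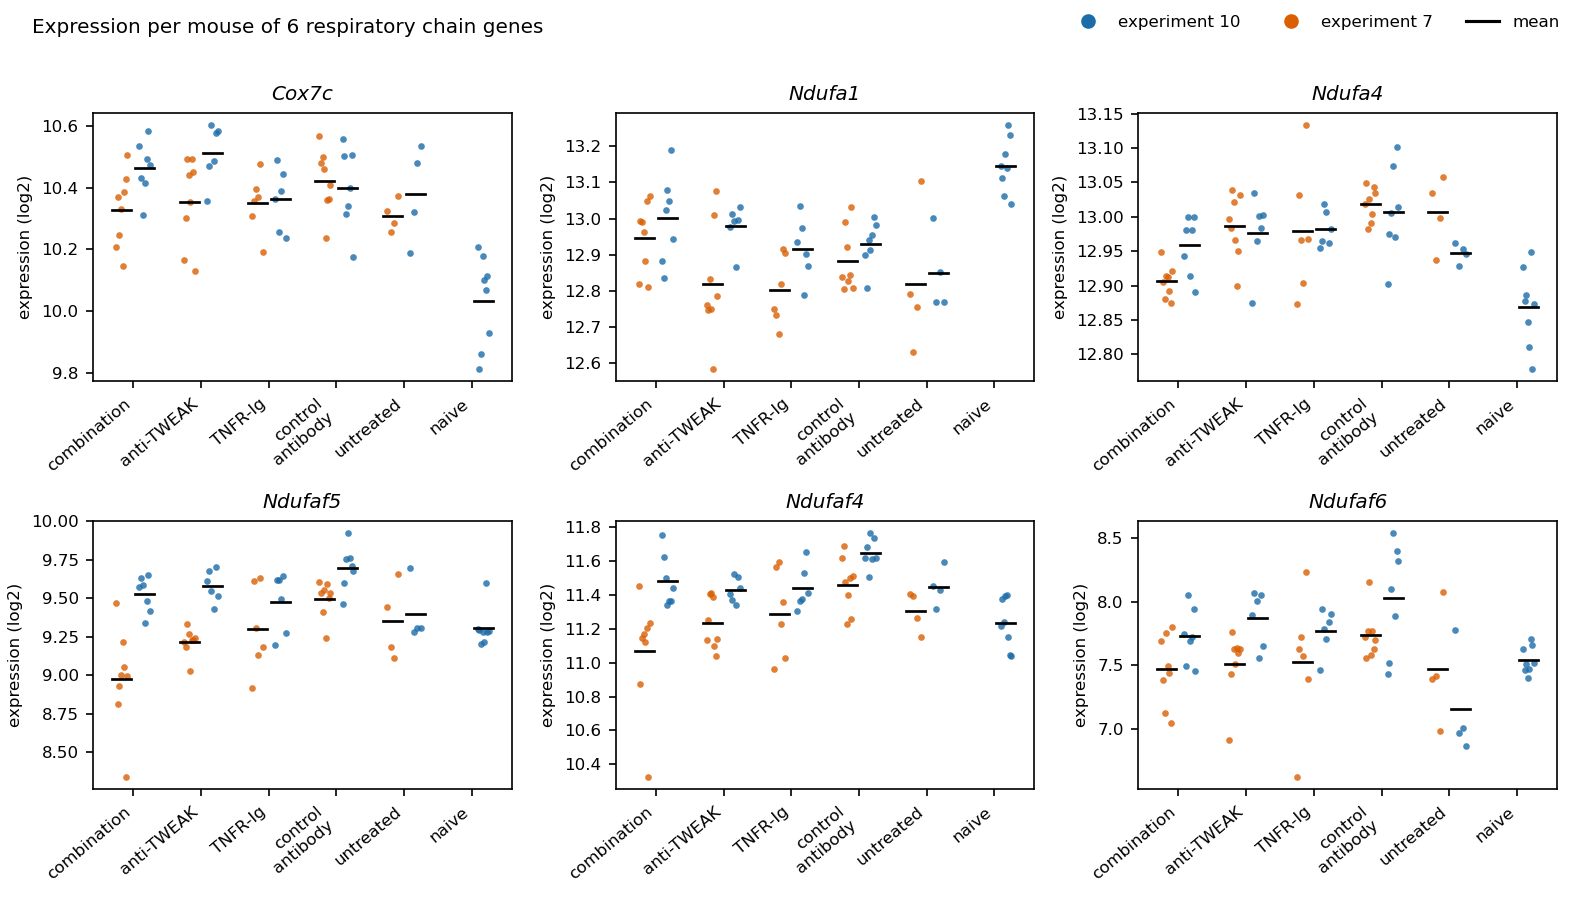
Expression on the log2 scale of 6 members in each mouse (points), by group from the combination on the left to naive mice on the right, with the mean of each group and experiment (line). Cox7c is lowest and Ndufa1 highest in naive mice, and Ndufaf5 and Ndufaf4 are lowest in mice of experiment 7 given the combination.

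Compared with the control antibody, the combination lowered 9 of 85 members (10.6%) and raised none, where 31.2% of all genes tested were called, 14.2% higher and 17% lower. Of the 9, 5 were assembly factors of complex I, out of 8 tested. These proteins help to build complex I and are not part of the finished enzyme. The other 4 were Ndufa4, the accessory subunit Ndufa9, and Atp5g1 and Atp5k of ATP synthase.

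Ndufaf5, an arginine hydroxylase that acts on a complex I subunit during assembly, fell furthest. In experiment 7 its values with the combination had a lowest of 8.34, a median of 8.998 and a highest of 9.47, against 9.24, 9.54 and 9.61 with the control antibody. In experiment 10 they were 9.34, 9.57 and 9.65 with the combination, against 9.46, 9.71 and 9.92 with the control antibody. The ranges overlapped in both experiments. Over both the change was -0.36 ± 0.073 log2 units, 0.781-fold, with adjusted p = 0.000229. It was -0.52 in experiment 7 (adjusted p = 0.0066) and -0.17 in experiment 10 (adjusted p = 0.114), and the difference between experiments was not called.

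Ndufaf4, an early assembly factor of complex I, had a lowest, median and highest value of 10.32, 11.34 and 11.76 with the combination, against 11.23, 11.61 and 11.77 with the control antibody. The ranges overlapped. It fell by 0.29 ± 0.067 log2 units (adjusted p = 0.00105). Its second probe set fell by 0.36 ± 0.072 (adjusted p = 0.000182). Ndufaf2, which acts late in complex I assembly, was 0.20 ± 0.054 lower (adjusted p = 0.00416), Ndufaf7, a methyltransferase acting on a complex I subunit, 0.097 ± 0.037 lower (adjusted p = 0.0375), and Ndufaf6 0.28 ± 0.11 lower (adjusted p = 0.0481). All 8 tested factors had estimates below zero, with a median of -0.16. Ndufaf1, Ndufaf3 and Ndufaf8 did not pass the test.

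Ndufa4 had values of 12.88, 12.91 and 13.00 (lowest, median and highest) with the combination, against 12.90, 13.01 and 13.10 with the control antibody, a change of -0.082 ± 0.020 log2 units (adjusted p = 0.00165). Atp5g1, which encodes the c subunit of the ATP synthase rotor, was 0.11 ± 0.037 lower (adjusted p = 0.0172). Its paralogs Atp5g2 and Atp5g3, which encode the same mature protein, had changes of -0.034 and +0.0021 (adjusted p = 0.629 and 0.932). Atp5k, the e subunit of ATP synthase, was 0.085 ± 0.028 lower (adjusted p = 0.0169) and Ndufa9, an accessory subunit that joins the arms of complex I, 0.051 ± 0.019 lower (adjusted p = 0.0311).

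The experiments contributed unequally. In experiment 7 alone 5 members were called, all lower (5.88%, against 8.45% of all genes tested, 5.47% lower): Ndufaf5, Ndufaf4, Ndufaf2, Ndufaf7 and Ndufa4. In experiment 10 alone 1 was called (1.18%, against 17.6%, 7.57% lower), and it was higher: Sdha, the flavoprotein of complex II, by 0.10. Against untreated mice none of the 9 was called, and their estimates lay between -0.13 (Ndufaf5) and +0.28 (Ndufaf6). Neutrophil markers were lower with the combination than with the control antibody, 8 of 10 by the test, with a median change of -2.10. Their part in these values was not tested.

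**Figure D2:**
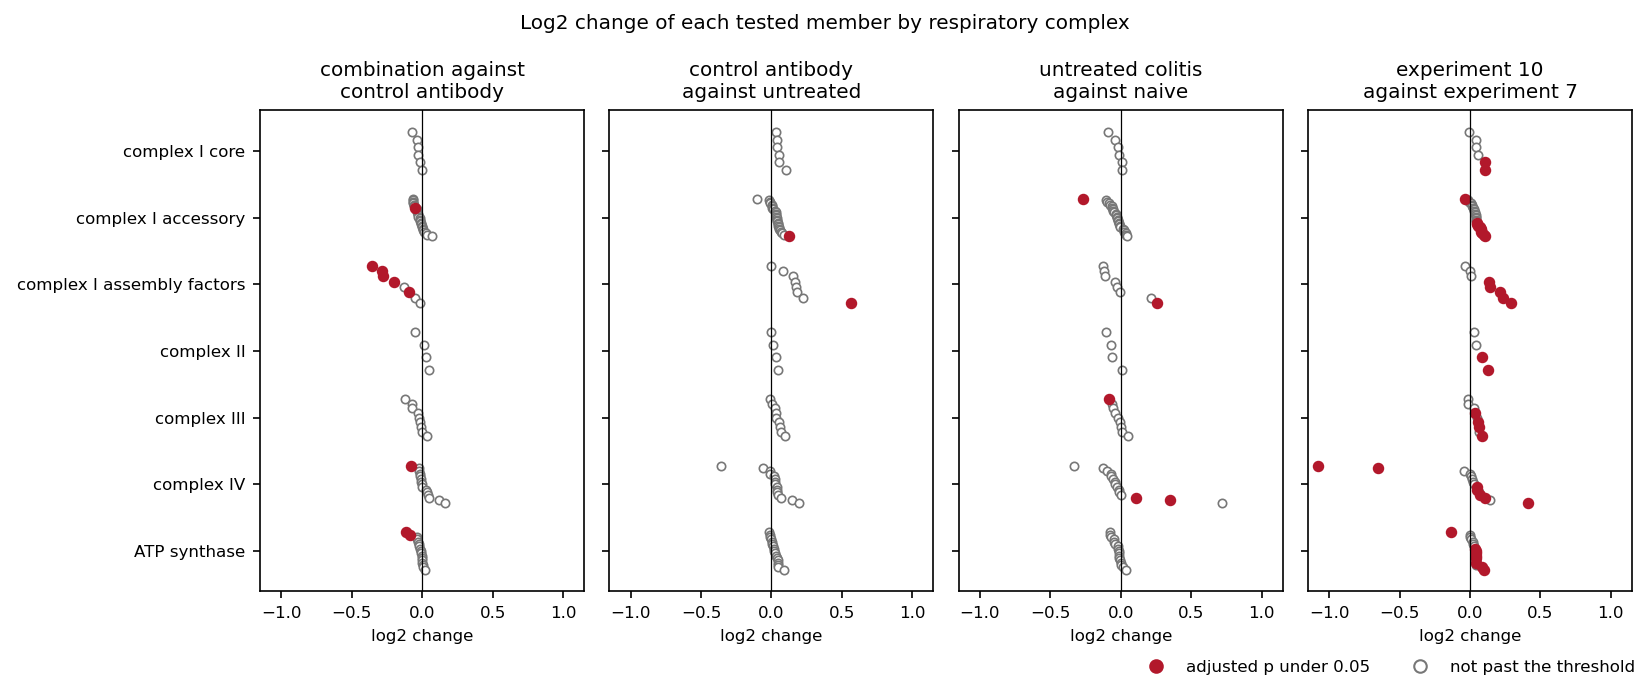
Log2 change of each of the 85 tested members (points), grouped by respiratory complex, in 4 comparisons, with members past the test in red. With the combination the called members are mostly assembly factors of complex I, between -0.097 and -0.36, whereas no subunit of complex I core, II or III passes the test.

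TNFR-Ig alone and anti-TWEAK alone changed no member past the threshold, where 4.08% and 2.8% of all genes tested were called against the control antibody by limma. At an unadjusted p under 0.05 there were 13 and 6 of 85. The share of all genes at that unadjusted level is not given here or below, so such counts are not read as results about the members. These comparisons and that of the combination share the control antibody mice. With TNFR-Ig the smallest p-values belonged to Ndufaf2 (-0.17, adjusted p = 0.0782), Ndufaf5 (-0.21, 0.0926), Atp5k (-0.080, 0.0992), Ndufaf4 (-0.19, 0.103) and Ndufc1 (-0.075, 0.126). With anti-TWEAK they belonged to Ndufaf4 (-0.22, adjusted p = 0.0559), Ndufaf5 (-0.21, 0.116), Ndufa9 (-0.049, 0.158), Atp5k (-0.070, 0.174) and Ndufc1 (-0.069, 0.175). The assembly factors had a median change of -0.16 with TNFR-Ig and -0.071 with anti-TWEAK. In experiment 10 alone Ndufaf4 was called lower with TNFR-Ig (-0.21, adjusted p = 0.0355), 1 member against 15.6% of all genes tested. With anti-TWEAK 3 were called there, against 14.9%: Ndufaf4 (-0.22, adjusted p = 0.0291) lower, and Ndufs1 (+0.11, 0.0312) and Sdha (+0.11, 0.0124) higher.

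No member passed the test between the combination and either agent. Against TNFR-Ig alone 0 of 85 were called (6.71% of all genes tested were), and 2 had an unadjusted p under 0.05. The smallest p-values were those of Ndufa1 (+0.12, adjusted p = 0.0777), Ndufa4 (-0.050, 0.141), Cox7a1 (+0.35, 0.239), Ndufaf5 (-0.14, 0.25) and Atp5j (+0.046, 0.26). Against anti-TWEAK alone 0 were called, as was 0% of all genes tested, with 4 members at an unadjusted p under 0.05. These were led by Ndufa4 (-0.052, adjusted p = 0.194), Ndufaf2 (-0.12, 0.24), Ndufaf5 (-0.15, 0.268), Ndufa1 (+0.082, 0.27) and Atp5g1 (-0.073, 0.293). Departure from additivity, a contrast in which an effect of the control antibody remains, was called in 0 members and 0.319% of all genes tested. The 4 members at an unadjusted p under 0.05 were Atp5j (adjusted p = 0.223), Atp5l (0.281), Ndufa1 (0.282) and Cox7a2 (0.325), followed by Cox7a1 (0.383).

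The control antibody itself raised 2 members over untreated colitis (2.35%, against 10.3% of all genes tested) and lowered none, where 4.82% of all genes were higher and 5.52% lower. Ndufaf6 had a lowest, median and highest value of 7.43, 8.10 and 8.54 in the 7 mice of experiment 10 given the antibody, against 6.87, 6.97, 7.01 and 7.77 in the 4 untreated mice. Only the highest of the untreated mice lay inside the range of the antibody group. Over both experiments the difference was +0.57 ± 0.13 log2 units (adjusted p = 0.00563), with +0.27 in experiment 7 (adjusted p = 0.748) and +0.87 in experiment 10 (adjusted p = 0.0021). Ndufa5, an accessory subunit of the matrix arm of complex I, was 0.12 ± 0.039 higher (adjusted p = 0.0331). The next were Ndufaf1 (+0.15, adjusted p = 0.0512), Ndufaf2 (+0.18, 0.0643) and Atp5k (+0.088, 0.0744), which did not pass. In experiment 10 alone 8 members were called, all higher (9.41%, against 17.8% of all genes tested, 5.11% lower), and 5 of them were assembly factors. In experiment 7 alone 0 were called (0.0479% of all genes), also 0 at an unadjusted p under 0.05. Without untreated replicate 5 of experiment 7 the count over both experiments was 10, without replicate 1 of that experiment 6, and without replicate 2, 3 or 5 of experiment 10 it was 1. The shares of all genes in these fits are not given here. Monocyte and macrophage markers were lower with the antibody, 9 of 12 by the test, and their part in these values was not tested.

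Few members differed between mice given the combination and naive mice. Besides Cox7c and Ndufa1, Ndufa9 was lower by 0.062 ± 0.024 log2 units (adjusted p = 0.0428), which made 3 of 85 (3.53%, against 25.3% of all genes tested). Ndufa4 (+0.062, adjusted p = 0.0602) and Atp5g2 (-0.13, 0.0968) came next. In experiment 10 alone 9 were called, 5 higher and 4 lower (10.6%, against 36.7%), among them Ndufaf4 (+0.25, adjusted p = 0.00259), Ndufaf5 (+0.22, 0.0214) and Cyc1, the cytochrome c1 of complex III (+0.11). Naive mice had lower values of Ndufaf4 and Ndufaf5 than any colitic group of experiment 10 on average.

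More members passed the test between the experiments than in any treatment comparison, but their share was near that of all genes tested. Among the 64 brightest members it was 46.9%, against 43.3% of other genes at least as bright. Array run differed with the experiment for all but 2 arrays of experiment 7, so experiment and array run cannot be told apart here. Over the 64 colitic mice, 40 of 85 members differed between experiment 10 and experiment 7 (47.1%, against 43.4% of all genes tested), 36 higher and 4 lower in experiment 10, where 27.6% of all genes tested were higher. The changes were small, with a median of +0.042, against +0.024 over all genes tested. The largest among the higher members were Cox7a1 (+0.41 ± 0.12, adjusted p = 0.00609), Ndufaf5 (+0.29 ± 0.052, 6.99e-06), Ndufaf4 (+0.23 ± 0.047, 6.64e-05) and Ndufaf6 (+0.21 ± 0.081, 0.0284). Sdha followed the same direction (+0.13 ± 0.021, adjusted p = 1.85e-06), as did Sdhb (+0.087), Cyc1 (+0.082), the core subunits Ndufs1 (+0.11) and Ndufv2 (+0.11), the accessory subunits Ndufv3 (+0.10) and Ndufb2 (+0.099), Uqcrh (+0.061) and Uqcrc2 (+0.060) of complex III, and Atp5e (+0.10) and Atp5j2 (+0.088). The 4 lower ones were Cox6a2 (-1.08 ± 0.39, adjusted p = 0.0222), Cox8b (-0.65 ± 0.26, 0.0328), Atp5g2 (-0.14 ± 0.034, 0.000761) and Ndufa9 (-0.036 ± 0.014, 0.0289). Cox8b, with a mean of 2.80, lay below the dim-gene filter of 2.42 in most mice. Its highest values (6.61, 6.22 and 6.07) were in experiment 7. The skeletal and heart muscle list averaged, in experiments 10 and 7, 8.27 and 10.03 with the combination and 7.84 and 9.70 with the control antibody. It averaged 8.48 and 9.32 with anti-TWEAK, 8.65 and 9.59 in untreated mice, and 8.87 and 8.03 with TNFR-Ig. The part of this list was not tested. With arrays centred on their medians the count was 23, with 13 higher and 10 lower, so the split between higher and lower calls depends on the scaling. The share of all genes in that fit is not given here. The mean Actb difference between 3 prime and 5 prime probe sets in experiments 10 and 7 was 1.24 and 1.05 with the combination, 1.18 and 1.04 with anti-TWEAK, 1.16 and 1.05 with TNFR-Ig, 1.11 and 1.06 with the control antibody, and 1.06 and 1.07 in untreated mice. Its part in these values was not tested.

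A treatment effect on 1 member differed between the experiments by a test of the difference. Sdha, which carries the succinate-binding site of complex II, had values with anti-TWEAK of 13.17, 13.32 and 13.44 (lowest, median and highest) in experiment 7, against 13.31, 13.40 and 13.50 with the control antibody. In experiment 10 they were 13.51, 13.57 and 13.58 with anti-TWEAK, against 13.40, 13.44 and 13.49 with the control antibody. In experiment 10 the groups did not overlap, and in experiment 7 they did. The share of all genes without overlap between these groups is not given here. The effect in experiment 10 minus that in experiment 7 was +0.20 ± 0.054 log2 units (adjusted p = 0.0346), where 1.72% of all genes tested were called. In experiment 10 the colonocyte marker list averaged 13.02 with anti-TWEAK, against 12.87 with the control antibody, and in experiment 7 it averaged 12.82 with anti-TWEAK, against 12.94 with the control antibody. The smooth muscle list averaged 12.73 with anti-TWEAK, against 12.46 with the control antibody, in experiment 10, and 12.45 with anti-TWEAK, against 12.50 with the control antibody, in experiment 7. The Actb difference averaged 1.18 with anti-TWEAK, against 1.11 with the control antibody, in experiment 10, and 1.04 with anti-TWEAK, against 1.06 with the control antibody, in experiment 7. Their part in this difference was not tested. For the antibody, TNFR-Ig and the combination 0 members were called, against 0.016%, 0% and 0.0319% of all genes.

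The other subunits of complex II, Sdhb (the iron-sulfur protein), Sdhc and Sdhd (the membrane anchors), passed no test of a treatment over both experiments by their brightest probe sets. Sdhb and Sdhc had estimates of -0.11 ± 0.063 and -0.072 ± 0.040 in colitis (adjusted p = 0.161 and 0.134), and Sdha -0.065 ± 0.041 (0.182), whereas Sdhd was at +0.012 ± 0.026 (0.721). Cyc1 was at +0.052 ± 0.055 (0.454).

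Complex IV has tissue isoforms, which differ in where they are usually expressed. The widely expressed forms Cox4i1, Cox6a1, Cox6b1, Cox7a2, Cox7a2l and Cox8a had group means that varied by at most 0.16 between groups, and over both experiments none was called in colitis or with any treatment by its brightest probe set. Cox8a was called lower in colitis in experiment 10 alone, and other probe sets of Cox6a1 (-0.14 ± 0.041, adjusted p = 0.00461) and Cox8a (-0.14 ± 0.058, 0.0469) were called lower in colitis over both. Cox6a1 (+0.10) and Cox6b1 (+0.050) differed between experiments. Cox4i2, a form induced by low oxygen in some tissues, lay within 0.1 of the floor of the table, 2.077, on all 72 arrays, and Ndufa4l2, also known to be induced by low oxygen, on 63. Cox6b2, known as a testis form, had group means between 7.68 and 7.82 and was called in no comparison.

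The heart and skeletal muscle forms varied between mice of the same group. Cox6a2 had a lowest, median and highest value of 4.24, 5.83 and 8.89 with the combination, 4.36, 5.20 and 9.67 with anti-TWEAK, 4.36, 5.25 and 10.96 with TNFR-Ig, 4.36, 5.65 and 10.65 with the control antibody, 5.23, 5.79 and 9.79 in untreated mice and 3.59, 5.23 and 5.81 in naive mice. Cox8b was near the floor in most mice and reached 6.61 in the mouse with the highest Cox6a2, replicate 1 of TNFR-Ig in experiment 7. Both followed the mean of 10 skeletal and heart muscle markers across the 72 mice. For Cox6a2 Pearson's r was 0.856 and Spearman's rho 0.898, and without the 2 mice farthest from the median r was 0.886. For Cox8b the values were 0.757, 0.857 and 0.798. Within experiments r was 0.875 in experiment 7 and 0.793 in experiment 10 for Cox6a2, and 0.789 and 0.657 for Cox8b. Permutation p was 1e-05 in each case, the smallest that 100000 permutations can give, and 2e-05 after adjustment over the 6 relations computed. Mice were permuted over all groups and both experiments. Differences between groups and experiments therefore enter these p-values, here and below.

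Cox7a1, usually grouped with the heart and skeletal muscle forms, did not follow those markers (r = -0.106, rho = -0.0901, permutation p = 0.377 and 0.452, adjusted p = 0.432 and 0.542), with r = -0.202 without the 2 farthest mice, -0.0173 in experiment 7 and 0.0344 in experiment 10. It followed the 10 smooth muscle markers instead, with r = 0.585 and rho = 0.627 (permutation p = 1e-05 each, adjusted p = 2e-05), r = 0.593 without the 2 farthest mice, and r = 0.595 in experiment 7 and 0.559 in experiment 10. The smooth muscle list differed between groups, with a mean of 13.04 in naive and 12.41 in untreated mice. No relation within groups is given here. For Cox6a2 and the smooth muscle markers r was -0.274 and rho -0.216 (permutation p = 0.0192 and 0.0681, adjusted p = 0.0287 and 0.102), with r = -0.234 without the 2 farthest mice, and r was -0.0367 within experiment 7 and -0.359 within experiment 10. For Cox8b r was -0.0948 and rho 0.0540 (permutation p = 0.432 and 0.651, the same after adjustment), and r was -0.0738 without the 2 farthest mice, 0.115 in experiment 7 and -0.0821 in experiment 10. Cox7a1 was 0.33 ± 0.24 log2 units lower in untreated colitis over both experiments (adjusted p = 0.26) and 0.49 lower in experiment 10, where it passed the test, and the smooth muscle markers fell in colitis by a median of 0.40.

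**Figure D3:**
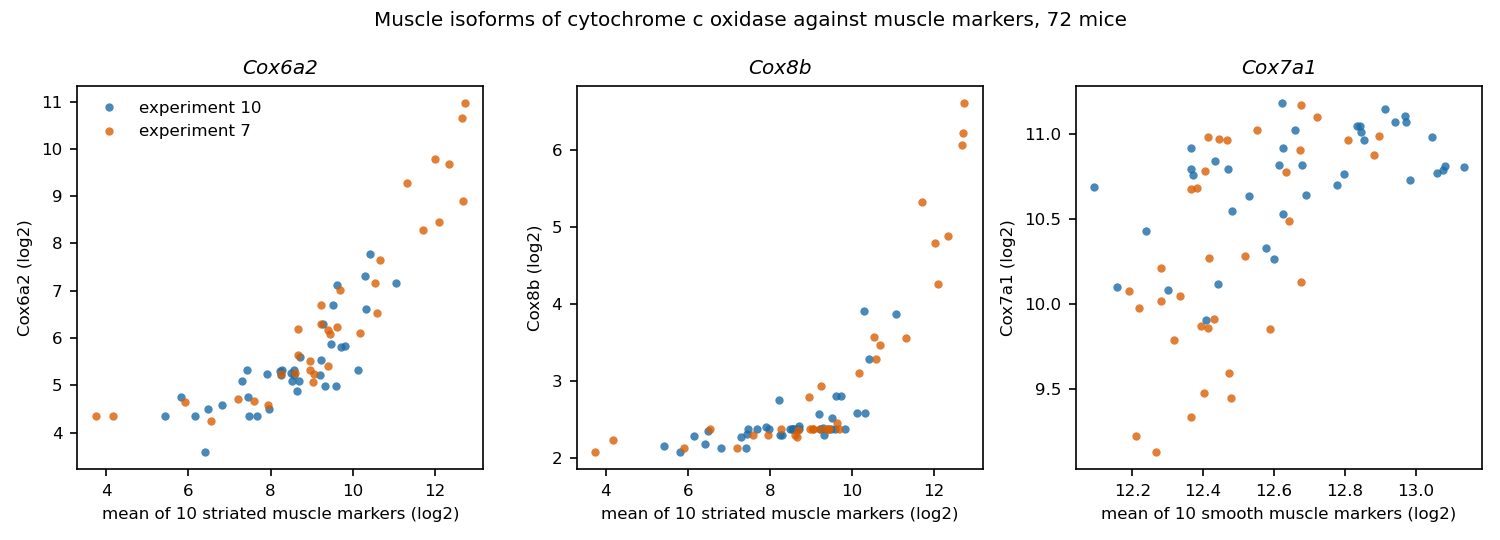
Level of 3 muscle isoforms of complex IV (vertical axes, log2) against the mean of 10 muscle markers (horizontal axes, log2) in 72 mice, coloured by experiment. Cox6a2 and Cox8b rise with the striated muscle markers (r = 0.856 and 0.757) and Cox7a1 with the smooth muscle markers (r = 0.585).

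Other mitochondrial genes were described from lists chosen beside the members. The mitochondrial ribosome, which translates the subunits encoded by mitochondrial DNA, had 39 of 73 tested genes lower with the combination than with the control antibody and none higher (53.4%, where 17% of all genes tested were lower), with a median of -0.13. The largest falls were those of Mrps27 (-0.35 ± 0.084), Mrps22 (-0.33 ± 0.074) and Mrpl38 (-0.30 ± 0.063). In experiment 7 alone 13 of them were called lower, where 5.47% of all genes were, and in experiment 10 alone 16, where 7.57% were. Against untreated mice 4 were. In colitis 20 of the 73 were called (27.4%, against 47.8% of all genes tested), 18 higher, where 22.2% of all genes were higher, led by Mrpl38 (+0.35 ± 0.088), Mrps7 (+0.31 ± 0.077) and Mrpl33 (+0.29 ± 0.068).

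Assembly factors of complexes II to V, with a few of complex I that are not named Ndufaf, had 9 of 34 called with the combination (26.5%, against 31.2% of all genes tested), 8 lower and 1 higher, led by Cox18 (-0.30 ± 0.10), Ecsit (-0.25 ± 0.064) and Cox19 (-0.20 ± 0.039). In colitis 12 were called (35.3%, against 47.8% of all genes tested), 10 lower and 2 higher, led by Sdhaf1, a factor of complex II (+0.43 ± 0.098), Tmem126b, a factor of complex I (-0.36 ± 0.089), and Cox15, an enzyme of heme a synthesis (-0.25 ± 0.049). Of 16 enzymes of the tricarboxylic acid cycle and pyruvate dehydrogenase 3 were lower with the combination (18.8%, where 17% of all genes were lower), Idh3a (-0.12 ± 0.036), Dld (-0.087 ± 0.032) and Dlst (-0.087 ± 0.031), and in colitis 2 were called (12.5%, against 47.8%), of which Idh2 was higher (+0.18 ± 0.056) and Cs, citrate synthase, lower (-0.065 ± 0.020). Of 15 carriers and electron carriers 3 were called with the combination (20%, against 31.2%), Dhodh (-0.29 ± 0.11), Cycs, cytochrome c (-0.11 ± 0.033), and Vdac3 (+0.076 ± 0.029). In colitis 3 were called, all lower (20%, against 47.8%): Vdac3 (-0.15 ± 0.041), Chchd3 (-0.12 ± 0.038) and Sqor (-0.083 ± 0.033).

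Among 20 regulators of mitochondrial gene expression, 13 were called in colitis (65%, against 47.8% of all genes tested), 9 lower and 4 higher. Ppargc1a, the coactivator PGC-1α, was 0.87 ± 0.15 log2 units lower (adjusted p = 1.14e-06), while its relative Pprc1 was 0.87 ± 0.16 higher (1.23e-05) and Myc 0.64 ± 0.12 higher (9.91e-06). With the combination 6 were called (30%, against 31.2%), 5 lower and 1 higher. Pprc1 was 0.40 ± 0.12 log2 units lower (adjusted p = 0.00637) and Twnk, the mitochondrial helicase, 0.26 ± 0.056 lower (0.00047), while Ppargc1a was 0.34 ± 0.10 higher (0.00974).

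**Figure D4:**
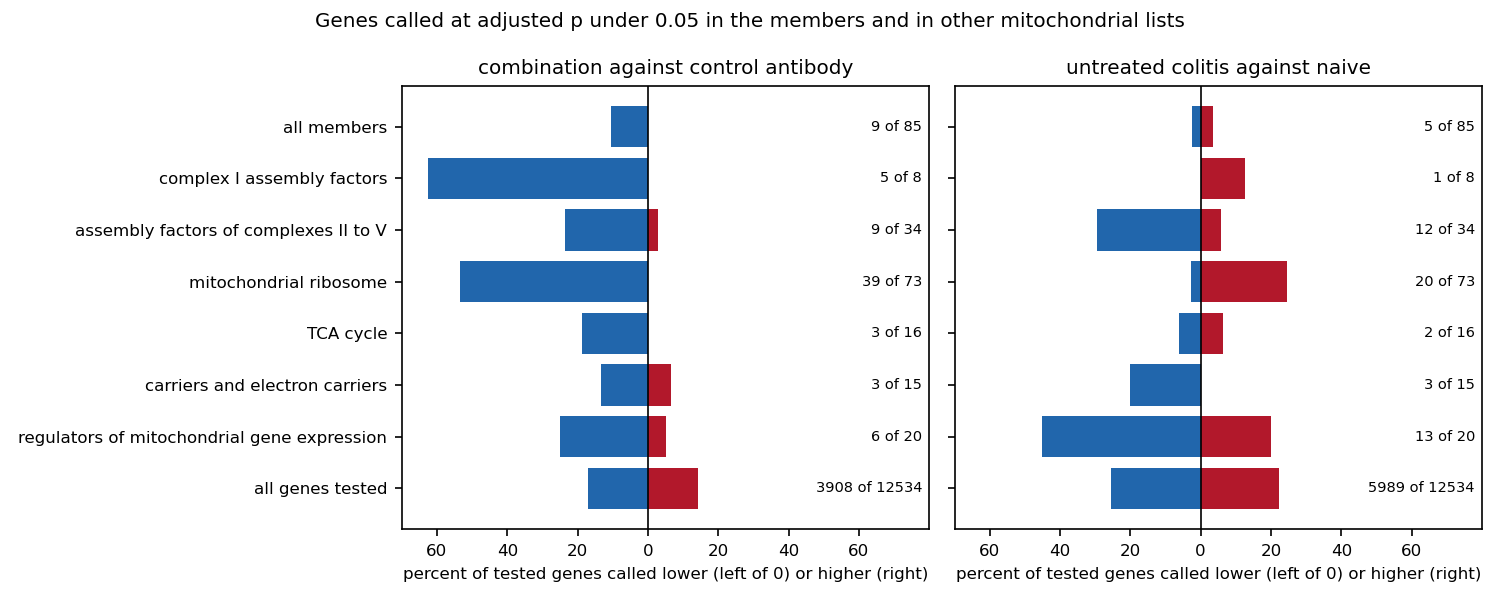
Percent of tested genes called lower (bars to the left) or higher (bars to the right) in the members, their assembly factors, other mitochondrial lists and all genes tested, with counts at the right. In colitis 5 of 85 members are called, against 5989 of 12534 genes, and with the combination 39 of 73 genes of the mitochondrial ribosome.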

How the data were processed

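Colon RNA of 72 mice, 1 mouse per array, was measured on Affymetrix arrays. The values are log2 expression per probe set as the authors deposited them. The submitters' processing notes name RMA, GCRMA, R 2.11.1 and limma 3.4.5, without saying which of RMA and GCRMA made this table. Of the values, 37.51% lie within 0.1 of the floor of 2.077. Probe sets were named from the platform annotation, with symbols updated through Entrez IDs. Of 45101 probe sets 34945 name 1 gene, 932 several and 9160 none. Each gene was read from its brightest probe set, and a gene was tested if its mean reached 2.42, the 40th percentile of probe set means, which kept 12534 of 18193 genes. Groups were taken from the labels, and replicates are separate mice per the study's design text. No column of the table was left unused (0 columns).

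The test was limma 3.58.1 in R 4.3.3 (lmFit, eBayes) with the group and the experiment as terms, fitted on all 72 arrays. It was two-sided with Benjamini-Hochberg adjustment over all genes tested, and a gene was called at an adjusted p under 0.05. Interactions were tested with a mean for each group in each experiment. Errors on log2 changes are standard errors. The procedure was tested on simulated data. Correlations and figures were made in Python 3.11.15 with scipy 1.17.1 and matplotlib 3.10.9. Promoter windows are RefSeq's, on GRCm38.p6. Alternatives covered the dim-gene filter, probe set choice, normalization, array weights, experiments alone, the replicate block and single arrays.

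The members and lists were chosen with earlier results of these data known. Per comparison, up to 3 called members of each complex with the largest changes are named. In comparisons with under 5 calls, the 5 smallest p-values are given too. Complex II, Cyc1 and the isoform sets are always named. Of other lists up to 3 called genes are named in colitis and with the combination. Ndufaf2 and Ndufaf7 with the combination, and some members called in experiment 10 alone, fall outside this rule and were chosen after their values were seen.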

Additional observations from a re-analysis of the deposited data

Results flagged for a closer look

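For each list of members, the level of each mouse was its mean deviation from the average of all arrays, in log2 units. In 88 sets of 4 to 8 mice of the same group, experiment and list, 6 held a mouse set apart from the others by Dixon's criterion (6.82%), where chance gives about 1 in 20. In complex IV, control antibody replicate 5 of experiment 7 stood at 0.4646 (others from -0.1861 to 0.0828), TNFR-Ig replicate 1 of experiment 7 at 0.5046 (others from -0.2034 to -0.0397) and anti-TWEAK replicate 7 of experiment 10 at 0.2347 (others from -0.1103 to -0.0059). Their skeletal and heart muscle marker lists averaged 12.67, 12.73 and 11.06. Untreated replicate 5 of experiment 10 stood at -0.1368 in complex IV (others from -0.0248 to -0.0060), with that list at 7.41. In the assembly factors of complex I, naive replicate 6 stood at 0.0958 (others from -0.0686 to -0.0011). Over all members, anti-TWEAK replicate 5 of experiment 7 stood at -0.1886 (others from -0.0657 to 0.0251).

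The effect of anti-TWEAK on Sdha differed between the experiments, by 0.202791 log2 units (SE 0.054, adjusted p = 0.0346 by limma).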

How the results depend on the processing

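The number of members called in colitis, 5, became 15 with the mean of all probe sets, 13 without the experiment term, 18 with array weights, 20 with arrays centred on the median, 11 with the groups compared alone, 25 in experiment 10 alone (7 to 30 with 1 untreated replicate left out) and 1 with a minimum change of 0.3. For the combination against naive mice, 3 became 6, 5, 5 and 13 under the first 4 of these, 9 in experiment 10 alone and 1 with the minimum change. For the control antibody, 2 became 5 with the mean of probe sets, 7 with array weights, 1 with the groups compared alone, 0 and 8 in experiments 7 and 10 alone, 1 with the minimum change, 5 without 2 arrays of another array run, and 1 to 10 with 1 untreated replicate left out. For TNFR-Ig, 0 became 1 in experiment 10 alone, 4 with centred arrays and 2 without those 2 arrays. For anti-TWEAK, 0 became 1 with the stricter filter, 1 with the mean of probe sets, 3 in experiment 10 alone, 1 with centred arrays, 2 with array weights, 2 with the groups compared alone and 1 without those 2 arrays. For the combination, 9 became 5 and 1 in experiments 7 and 10 alone, 14 with centred arrays, 1 with the minimum change and 1 with untreated mice as controls. There Ndufaf6 (+0.28) and Atp5k (+0.0037) had the opposite sign, neither past the test. Against TNFR-Ig, 0 became 2 with array weights. Between experiments, 40 became 23 with centred arrays and 3 with the minimum change. The share of all genes called is given above only for the experiments alone and for untreated mice as controls. Under the other settings that share is not given here, so a change in the count of members is not read as a result about the members. The cause was not tested. Counts against anti-TWEAK and for additivity were 0 under each alternative run, and each other count stayed within 1.5 times. Of the values of named genes under alternatives, 449 kept direction and side of the threshold, 63 no longer passed and 2 reversed. The 449 include settings that could change nothing. These are the platform's own symbols, which gave the same members, and leaving out a naive mouse where colitic mice of the experiments were compared. The 449 are thus not all a check of stability.

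With the replicate block, 3 members were called in colitis and 1 with the control antibody, and 7 with the combination. Mice with the same number did not deviate together on the median (median r = -0.0050 over 132 pairs, against 0.0071 over 921 pairs with different numbers). Single pairs with the same number ran from -0.54 to 0.55. The number gave no sign of pairing mice, but a median cannot exclude it. For the difference between experiments no paired analysis was possible because the numbers lie within experiments.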

Other observations

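Probe sets that name several genes were left out of the tests above, and 10 of them name a member. Of the 6 bright enough to test, none was called in colitis, between the combination and naive mice or with the combination. Between the experiments 3 were higher in experiment 10, both of the probe sets that name Ndufb4 (+0.12 each) and that naming Ndufab1 (+0.09).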
